A study of Mus musculus with 6 samples.

Results

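The genes described here encode the subunits of the Polycomb repressive complexes PRC1 and PRC2. They were chosen by name, not by their values: 32 genes of the 55471 in the table, split into 6 genes of the PRC2 core, 5 of PRC2 accessory subunits, 11 of canonical PRC1, 8 of variant PRC1 and the 2 catalytic RING proteins shared by both kinds of PRC1. All 32 were detected in every library. Endosteal mesenchymal stromal cells, which line the inside of bone, gave 6 stranded, paired-end libraries of polyA RNA from C57BL/6J mice. In 3 libraries labelled Bap1 cKO the genotype was Prx1-cre;Bap1fl/fl, with Cre driven by the promoter of Prx1, which acts in limb mesenchyme. In 3 libraries labelled Bap1 WT it was Bap1fl/fl, so that both groups carried the floxed allele and the controls had no Cre by their label. Age, sex and culture are not given in the sources used here. Whether each library is another animal is not stated either, so p-values reflect the scatter among these libraries, which may be technical.

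PRC2 methylates histone H3 at K27 through its catalytic subunit, which is either Ezh2 or Ezh1, held by Eed and Suz12 and the histone-binding proteins Rbbp4 and Rbbp7. PRC1 attaches ubiquitin to histone H2A through Ring1 or Rnf2. Every PRC1 holds a Pcgf protein, and canonical PRC1 adds a Cbx protein that reads the PRC2 mark, whereas variant PRC1 holds Rybp or Yaf2 in its place. Bap1 is the deubiquitinase that removes this ubiquitin, so the comparison concerns the writers of a mark in cells in which its eraser was targeted. Most of these subunits exist as paralogs that can replace each other in a complex, and Ezh2 is known for its link to dividing cells, where E2F factors drive its transcription.

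The Polycomb genes moved in both directions, and Bmi1 and Pcgf2, and Cbx6 and Cbx2, changed in opposite directions within their families. Among the most altered were Cbx6, a canonical PRC1 reader that fell 6.89-fold, Ezh1, which rose 4.03-fold, Phf19, an accessory subunit of PRC2 that went up by 2.24 on the log2(RPKM + 1) scale, and Bmi1, a Pcgf protein that fell 2.42-fold. The test took in 31 of the 32, those whose mean level reached 1 RPKM. At a limma Benjamini-Hochberg adjusted p under 0.05, 10 rose and 8 fell in the cKO libraries and 13 did not pass. These 18 make up 58.1% of the genes tested, against 61.2% of all 12223 genes tested (34.7% higher and 26.5% lower), so the share that changed was near that of the transcriptome. The median absolute log2 difference was 0.47 for the Polycomb genes and 0.53 for all genes. With the columns scaled by the median of ratios the split was 8 higher and 12 lower.

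Values are RPKM as deposited by the authors, which are scaled by length. Comparisons of level between genes, such as the shares of paralogs below, also depend on the transcript lengths and annotation used. That dependence was not checked. Column totals were 678450 to 700082. The depth estimated from the steps between low values was 13.3, 14.4 and 22.2 M (mega) fragments in the cKO libraries and 14.7, 13.1 and 15.1 M in the WT libraries. A count of 3 fragments on a transcript of 1 effective kilobase was worth 0.135 to 0.229 RPKM, and less on a longer one. Bap1 itself was at 28.3, 25.2 and 23 RPKM in cKO libraries and at 22.8, 22.7 and 24 in WT libraries (limma Benjamini-Hochberg adjusted p = 0.29). A value over the whole gene does not show whether the floxed exons were removed, so it does not check the labels. Of 8 stromal markers, Prrx1 (39.5 to 72.2 RPKM in cKO, 68.2 to 83.8 in WT) and Twist1 (14.9 to 15.9 and 16.1 to 17.7) were present in both groups. Pdgfra was higher in cKO libraries (19.6, 9.72 and 11.1 RPKM, against 7.51, 6.86 and 8.31 in WT libraries). The sum of all 8 was 119 to 224 RPKM in cKO libraries and 2128 to 2252 in WT libraries, most of it in WT from Col1a1, Col1a2 and Cxcl12, and Lepr reached at most 0.14 in any library. Of the markers of kidney tubule, Pax8 stood at 124 to 243 RPKM in cKO libraries and 0.12 to 0.21 in WT libraries, Pax2 at 0 to 1.17 and 0 and Cdh16 at 1.37 to 2.14 and 0, and 6 more stayed at or under 0.28 in every library. Summed markers were 2.04 to 6.03 and 12.6 to 14.5 RPKM for general epithelium, 0.54 to 2.97 and 0.31 to 0.83 for blood cells and 0.13 to 0.65 and 0.1 to 0.24 for endothelium, with Ptprc at 0.03 or less, Cd3e at 0 and Cdh5 at 0.02 or less. Most of the epithelial sum was Krt19, at 1.67, 1.74 and 5.79 RPKM in cKO libraries and 13.3, 11.7 and 13.7 in WT libraries. The other 6 of the 7 epithelial markers stayed under 1 RPKM in every library. The part of such differences in cell makeup in the results below was not tested. In bulk samples fewer cells of a type cannot be told apart from less RNA per cell.

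**Figure D1:**
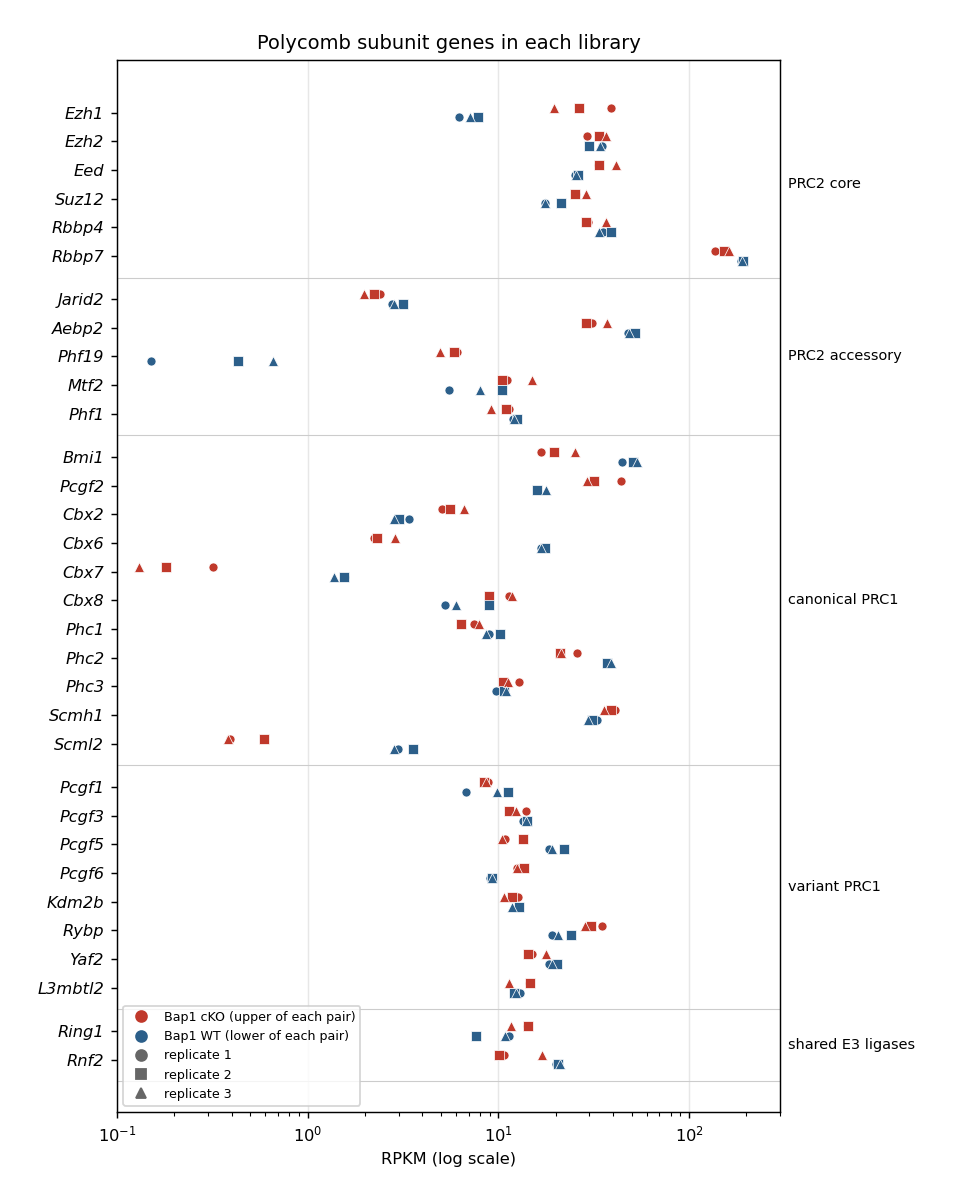
RPKM (log scale) of the 32 Polycomb genes in each library, red for Bap1 cKO and blue for Bap1 WT, with a marker shape for each replicate. Cbx6, Cbx7, Scml2, Ezh1 and Phf19 show the widest gaps between the groups, while Ezh2, Kdm2b, Phc3 and L3mbtl2 overlap.

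The promoters of the PRC2 genes on which the results turn are printed here, because the paralogs Ezh1 and Ezh2 differ in holding an E2F-type motif. RefSeq windows (GRCm38.p6) around the annotated start of transcription were found for 28 of the 32 genes, in 40 windows of 300 bases. Both strands were searched for TTTCCCGC, TTTGGCGC, TTTCGCGC and TTTGCCGC, with overlapping matches allowed, and capitals mark the matches. A match was held by 3 of the 40 windows, those of Ezh2, Suz12 and Phf19, and by 744 of all 32851 windows (2.26%). A match is a description and not a binding site, and no match says only that these letters are absent from the window.
Ezh1, chr11:101226414-101226713, minus strand: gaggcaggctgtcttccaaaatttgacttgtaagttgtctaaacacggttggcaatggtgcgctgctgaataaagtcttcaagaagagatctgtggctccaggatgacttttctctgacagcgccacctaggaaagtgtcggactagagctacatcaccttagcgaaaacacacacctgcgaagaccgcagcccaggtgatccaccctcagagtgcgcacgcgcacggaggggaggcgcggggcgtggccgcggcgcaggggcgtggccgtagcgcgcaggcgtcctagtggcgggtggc
Ezh2, chr6:47594981-47595280, minus strand: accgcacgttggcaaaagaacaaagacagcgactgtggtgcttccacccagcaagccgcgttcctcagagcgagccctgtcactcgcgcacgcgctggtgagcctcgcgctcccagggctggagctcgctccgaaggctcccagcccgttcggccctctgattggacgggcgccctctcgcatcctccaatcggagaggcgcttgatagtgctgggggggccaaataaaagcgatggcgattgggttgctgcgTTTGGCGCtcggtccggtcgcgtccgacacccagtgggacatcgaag
Suz12, chr11:79992856-79993155, plus strand: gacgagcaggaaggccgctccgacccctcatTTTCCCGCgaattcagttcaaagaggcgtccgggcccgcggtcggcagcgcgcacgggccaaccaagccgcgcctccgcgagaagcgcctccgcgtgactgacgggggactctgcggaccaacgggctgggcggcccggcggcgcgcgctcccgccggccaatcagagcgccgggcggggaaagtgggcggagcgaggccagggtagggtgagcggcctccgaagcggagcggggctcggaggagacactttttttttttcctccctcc
Phf19, chr2:34913927-34914226, minus strand: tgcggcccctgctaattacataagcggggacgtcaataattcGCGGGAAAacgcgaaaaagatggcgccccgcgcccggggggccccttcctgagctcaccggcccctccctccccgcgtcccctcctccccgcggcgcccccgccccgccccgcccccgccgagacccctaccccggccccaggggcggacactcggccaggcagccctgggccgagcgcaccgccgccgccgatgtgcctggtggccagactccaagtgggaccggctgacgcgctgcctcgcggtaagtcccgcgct
The window of Ezh1 held no match. CpG dinucleotides numbered 23 in the window of Ezh1, 31 in that of Ezh2, 41 in that of Suz12 and 38 in that of Phf19, against a median of 23.5 over the windows of the Polycomb genes and 7 over all windows.

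In the PRC2 core Ezh1 rose and Ezh2 did not pass the test. Ezh1 (chromosome 11, 101191115 to 101226463, minus strand) had 38.9, 26.4 and 19.7 RPKM in the cKO libraries and 6.25, 7.78 and 7.06 RPKM in the WT libraries. Every cKO library lay above every WT library, with cKO replicate 1 the highest and cKO replicate 3 the nearest to WT. The log2 difference was 1.82 ± 0.24 (SE; limma Benjamini-Hochberg adjusted p = 0.000755). Ezh2, the methyltransferase of dividing cells, whose promoter window is shown above, stood at 29.1, 33.5 and 36.5 RPKM in cKO libraries and at 35, 29.9 and 34.2 in WT libraries. The groups overlapped, and the difference of −0.00 on the log2 scale had a 95% interval of −0.27 to 0.26. Ezh1 thus made up 57.2, 44 and 35% of the pair's RPKM in cKO libraries and 15.2, 20.6 and 17.1% in WT libraries, and it passed Ezh2 in cKO replicate 1 alone. The sum of the pair was 61.4 ± 6.05 RPKM in cKO libraries and 40.1 ± 2.05 in WT libraries (SD, n = 3 each).

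The scaffold subunits rose by a smaller amount. Eed, which binds the methylated histone tail, was at 33.4, 33.9 and 41.6 RPKM in cKO libraries and at 25.1, 26.3 and 25.6 in WT libraries, a rise of 1.41-fold (log2 difference 0.48 ± 0.10, limma Benjamini-Hochberg adjusted p = 0.00678). Suz12, which holds the complex together, was at 25.4, 25.4 and 28.9 RPKM in cKO libraries and at 17.6, 21.4 and 17.7 in WT libraries, also 1.41-fold higher (0.47 ± 0.11, adjusted p = 0.00875). The groups did not overlap for either gene. Eed lies on chromosome 7 and Suz12 on chromosome 11, and with each chromosome centred on its median difference Eed stood at −0.17 (adjusted p = 0.217) and Suz12 at 0.06 (0.685), the highest p of their 16 alternatives, which otherwise ran from 0.0029 for Eed and from 0.00772 for Suz12. Rbbp7, a histone-binding protein shared with other complexes and the most abundant of the 32 genes in both groups, fell to 137, 152 and 161 RPKM in cKO libraries, against 187, 191 and 190 in WT libraries (log2 difference −0.34 ± 0.07, adjusted p = 0.00759). Its paralog Rbbp4 was at 31.7 ± 4.29 RPKM in cKO libraries and at 36.1 ± 2.51 in WT libraries (adjusted p = 0.197).

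Among the accessory subunits of PRC2 Phf19 showed the greatest rise. Phf19 is a Polycomb-like protein that brings PRC2 to chromatin, and lies on chromosome 2 (34893757 to 34914026, minus strand). It stood at 6.1, 5.86 and 4.94 RPKM in cKO libraries and at 0.15, 0.43 and 0.66 in WT libraries. WT replicate 1 was under 0.204 RPKM, its level of 3 fragments on 1 effective kilobase. The groups were far apart, with the WT libraries near the lower edge of detection (log2 difference 2.24 ± 0.18, limma Benjamini-Hochberg adjusted p = 0.0001). Phf19 reached the minimum mean of 1 RPKM only through the cKO libraries. Its Polycomb-like paralogs Mtf2 and Phf1 did not pass the test. Mtf2 was at 11.1, 10.5 and 14.9 RPKM in cKO libraries and at 5.49, 10.4 and 8.04 in WT libraries (adjusted p = 0.0708), and Phf1 at 11.4, 10.9 and 9.14 in cKO libraries and 11.9, 12.6 and 12.1 in WT libraries (adjusted p = 0.136). Phf19 made up 20 ± 2.54% of the RPKM of the 3 Polycomb-like genes in cKO libraries and 1.95 ± 1.17% in WT libraries (SD, n = 3).

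Aebp2 and Jarid2 belong to the other form of PRC2, in which Jarid2 and Aebp2 replace the Polycomb-like proteins. Aebp2 fell to 30.9, 28.9 and 37 RPKM in cKO libraries, against 47.8, 51.8 and 48.5 in WT libraries, 1.53-fold (log2 difference −0.60 ± 0.11, limma Benjamini-Hochberg adjusted p = 0.00272). Jarid2 was at 2.4, 2.24 and 1.97 RPKM in cKO libraries and at 2.76, 3.17 and 2.82 in WT libraries. Its groups did not overlap, but the difference of −0.29 ± 0.12 had an adjusted p of 0.0821.

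In canonical PRC1 the Pcgf paralogs moved in opposite directions. Bmi1 (chromosome 2, 18677018 to 18686629), the Pcgf protein of canonical PRC1 best known for repressing the Ink4 locus, fell to 16.7, 19.5 and 25.3 RPKM in cKO libraries, against 44.6, 50.8 and 53.2 in WT libraries (log2 difference −1.25 ± 0.16, limma Benjamini-Hochberg adjusted p = 0.000658). Its paralog Pcgf2 (chromosome 11, 97688823 to 97700497), also called Mel18, rose 2.13-fold, with 44.1, 31.9 and 29.2 RPKM in cKO libraries and 15.9, 15.9 and 17.7 in WT libraries (1.02 ± 0.16, adjusted p = 0.00163). Neither gene had overlapping groups, and cKO replicate 3 was the nearest to WT for both. Pcgf2 held 72.5, 62.1 and 53.5% of the RPKM of the pair in cKO libraries and 26.2, 23.8 and 24.9% in WT libraries. It was thus the more abundant of the pair in all 3 cKO libraries and the less abundant in all 3 WT libraries.

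The Cbx readers also moved in opposite directions. Cbx6 (chromosome 15, 79823896 to 79834688) fell to 2.24, 2.3 and 2.86 RPKM in cKO libraries, against 16.6, 17.6 and 16.8 in WT libraries (log2 difference −2.38 ± 0.11, limma Benjamini-Hochberg adjusted p = 1.3e-05). The values within each group lay close together, and Cbx6 ranked 29 of 32 Polycomb genes by mean RPKM in cKO libraries and 14 in WT libraries. Cbx7 (chromosome 15, 79915807 to 79971119), which lies beside Cbx6, was too low for the test, at 0.32, 0.18 and 0.13 RPKM in cKO libraries and 1.57, 1.56 and 1.38 in WT libraries. The values of cKO replicates 2 and 3 were under 0.208 and 0.135 RPKM, the levels of 3 fragments on 1 effective kilobase in those libraries. With no minimum level the log2 difference of Cbx7 was −1.05 ± 0.10 (adjusted p = 0.000642).

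Cbx2 and Cbx8 lie next to each other on chromosome 11 (119022962 to 119031270 and 119036305 to 119040969). Cbx2, which can compact chromatin, rose to 5.09, 5.6 and 6.6 RPKM in cKO libraries, against 3.39, 3.01 and 2.82 in WT libraries (log2 difference 0.73 ± 0.13, limma Benjamini-Hochberg adjusted p = 0.00311). Cbx8 was at 11.4, 8.94 and 11.9 RPKM in cKO libraries and at 5.22, 8.93 and 6.03 in WT libraries, so that replicate 2 of both groups had nearly the same level. Cbx8 passed as higher (0.62 ± 0.20, adjusted p = 0.0326), but lost its call under 9 of 16 alternatives, among them without cKO replicate 1 (0.0901) or 3 (0.0739) and without WT replicate 1 (0.109) or 3 (0.106), with a range of 0.0108 to 0.419. With each chromosome centred, Cbx2 did not pass either (0.089, the highest of its alternatives, which ran from 0.00309). Of the RPKM of these 4 Cbx genes, Cbx6 held 12.9 ± 0.978% in cKO libraries and 60.2 ± 3.16% in WT libraries, Cbx8 55.9 ± 3.73% and 23.5 ± 4.73%, and Cbx2 30.1 ± 3.17% and 10.9 ± 1.54%. Their sum was 19.2 ± 2.21 RPKM in cKO libraries and 28.3 ± 2.42 in WT libraries (SD, n = 3).

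**Figure D2:**
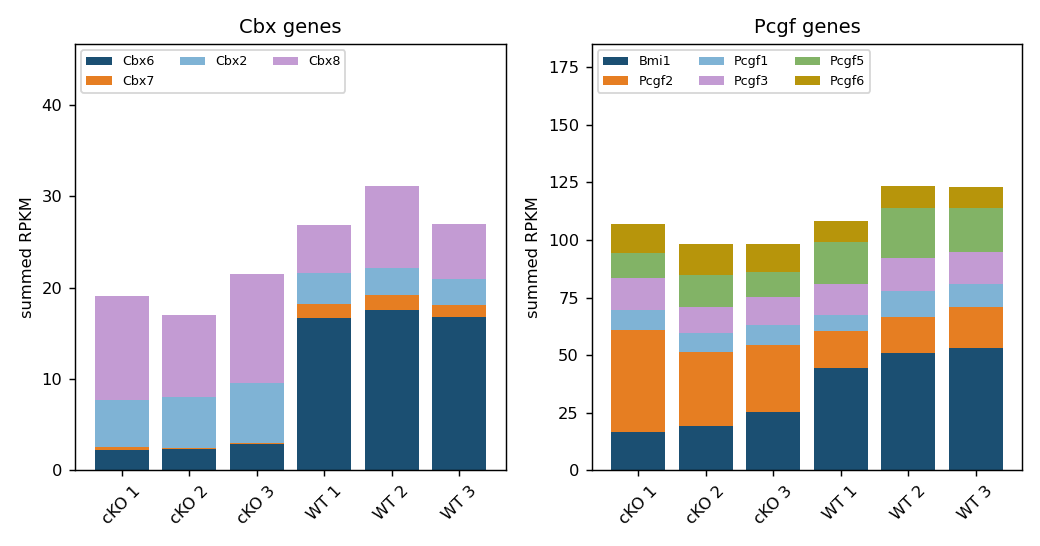
RPKM of the Cbx genes (left) and the Pcgf genes (right) stacked in each cKO and WT library. Cbx6 and Bmi1 make up the largest block in the 3 WT libraries, and Cbx8 and Pcgf2 in the 3 cKO libraries.

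The polyhomeotic and Scm subunits, which polymerize through SAM domains, gave 1 higher and 2 lower genes, and Phc1 and Phc3 did not pass. Of all genes tested, 34.7% were higher and 26.5% lower. Phc2 fell to 26, 21 and 21.4 RPKM in cKO libraries, against 37.8, 37.1 and 39.2 in WT libraries, 1.67-fold (log2 difference −0.72 ± 0.10, limma Benjamini-Hochberg adjusted p = 0.00103). Phc1 was at 7.48, 6.39 and 7.9 RPKM in cKO libraries and at 8.94, 10.3 and 8.64 in WT libraries, without overlap and just outside the threshold (adjusted p = 0.0535). Phc3 did not part (12.8, 10.6 and 11.2 RPKM in cKO, 9.74, 10.7 and 11 in WT, adjusted p = 0.336). Scml2 on the X chromosome fell to 0.39, 0.59 and 0.38 RPKM in cKO libraries, against 2.98, 3.56 and 2.82 in WT libraries, 6.88-fold (−1.50 ± 0.15, adjusted p = 0.000232). It entered the test only through its WT mean of 3.12 RPKM, since its cKO mean was 0.453. With a pseudocount of 0.1 the log2 difference of Scml2 was −2.55. Scmh1, its more abundant relative, was at 40.9, 39.1 and 35.9 RPKM in cKO libraries and at 32.9, 30.8 and 29.5 in WT libraries. This 1.24-fold rise passed (0.30 ± 0.08, adjusted p = 0.0186), but not under 6 of 16 alternatives, among them without cKO replicate 1 (0.0511) and without WT replicate 2 (0.0578) or 3 (0.073), and with each chromosome centred the difference turned to −0.14 (0.216), in a range of 0.00746 to 0.216.

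Of the RING ligases Rnf2 passed the test and Ring1 did not. Rnf2 (Ring1B), the main ligase of PRC1 in most cells, fell to 10.7, 10 and 16.9 RPKM in cKO libraries, against 20.1, 20.7 and 21 in WT libraries (log2 difference −0.71 ± 0.19, limma Benjamini-Hochberg adjusted p = 0.016). The WT libraries were within 1 RPKM of each other, while cKO replicate 3 stood well above cKO replicates 1 and 2. The call of Rnf2 was lost without cKO replicate 1 (0.0525) and without WT replicate 1, 2 or 3 (0.0505, 0.0537 and 0.0566), in a range of 0.000179 to 0.0566. Ring1 (Ring1A) stood at 14.1, 14.3 and 11.6 RPKM in cKO libraries and at 11.3, 7.64 and 10.9 in WT libraries (0.40 ± 0.16, adjusted p = 0.0725), without overlap. Ring1 held 57, 58.7 and 40.7% of the pair's RPKM in cKO libraries and 36, 27 and 34.2% in WT libraries, so that it was the more abundant ligase in cKO replicates 1 and 2 and the less abundant in the other 4 libraries.

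Of the 8 variant PRC1 genes 2 were higher, 1 was lower and 5 did not pass. The share that passed was 37.5%, against 61.2% of all genes tested (34.7% higher and 26.5% lower). Pcgf5, which with Pcgf3 marks a form of variant PRC1, fell to 10.9, 13.5 and 10.5 RPKM in cKO libraries, against 18.4, 22.1 and 19.2 in WT libraries, 1.71-fold (log2 difference −0.73 ± 0.13, limma Benjamini-Hochberg adjusted p = 0.00263). Pcgf3 was at 14, 11.4 and 12.4 RPKM in cKO libraries and at 13.5, 14.1 and 14 in WT libraries (adjusted p = 0.28). Pcgf6, the Pcgf protein of a germline gene-silencing complex, rose to 12.5, 13.7 and 12.6 RPKM in cKO libraries, against 9.09, 9.3 and 9.26 in WT libraries (0.45 ± 0.09, adjusted p = 0.00401). All 3 libraries of each group were close, so that this rise of 1.40-fold stood clear of the spread. Rybp, which stimulates the ligase, rose 1.48-fold, with 35, 30.6 and 28.3 RPKM in cKO libraries and 19, 23.9 and 20.6 in WT libraries (0.54 ± 0.12, adjusted p = 0.00732). Its paralog Yaf2 was at 14.9, 14.3 and 17.7 RPKM in cKO libraries and at 18.4, 20.4 and 19 in WT libraries, without overlap and just outside the threshold (−0.29 ± 0.11, adjusted p = 0.0507). Rybp held 66.6 ± 4.46% of the pair in cKO libraries and 52.3 ± 1.54% in WT libraries.

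The remaining variant subunits overlapped between the groups. Kdm2b, which binds unmethylated CpG and brings PRC1 to CpG islands, was at 12.8, 11.8 and 10.7 RPKM in cKO libraries and at 12.8, 12.9 and 11.8 in WT libraries (log2 difference −0.09, 95% interval −0.33 to 0.15). Its partner Pcgf1 was at 8.84, 8.4 and 8.61 RPKM in cKO libraries and at 6.76, 11.2 and 9.83 in WT libraries (−0.07, interval −0.49 to 0.35). L3mbtl2, of the Pcgf6 complex, was at 14.4, 14.7 and 11.4 RPKM in cKO libraries and at 13.1, 12 and 12.3 in WT libraries (0.10, interval −0.19 to 0.38).

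Across 13 pairs of paralogs the log2 ratio of the pair, taken in each library, did not overlap between the groups in 12. Non-overlap was common in the levels of single genes: 69% of all genes tested did not overlap, against 24 of the 31 Polycomb genes (77.4%). Over all genes tested, 39.2% had cKO higher and 29.8% had cKO lower. No such share was computed for ratios of other gene pairs. The 12 of 13 therefore has no background of its own and cannot be set against the 69%. An exact permutation test of 3 against 3 libraries (2-sided) cannot go below 0.1, the value all 12 pairs reached (0.108 after Benjamini-Hochberg adjustment over the 13 pairs), so that none can pass a threshold of 0.05. The exception was Rbbp7 over Rbbp4, with a difference of −0.15 ± 0.09 (SE; exact permutation p = 0.2). The widest shifts were those of Cbx2 over Cbx6 (3.11 ± 0.07), Cbx8 over Cbx6 (3.00 ± 0.21), Pcgf2 over Bmi1 (2.27 ± 0.34), Ezh1 over Ezh2 (1.82 ± 0.39) and Phf19 over Mtf2 (1.67 ± 0.28). Ring1 over Rnf2 shifted by 1.11 ± 0.35, Phc3 over Phc2 by 0.85 ± 0.05, Rybp over Yaf2 by 0.83 ± 0.17 and Pcgf3 over Pcgf5 by 0.60 ± 0.18. Phf1 over Mtf2 shifted by −0.78 ± 0.32 and Phc1 over Phc2 by 0.40 ± 0.13. Cbx7 over Cbx6 shifted by 1.33 ± 0.14 with a pseudocount of 1, but its share of the pair without a pseudocount was 8.04 ± 4.13% in cKO libraries and 8.12 ± 0.507% in WT libraries, since both genes fell.

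**Figure D3:**
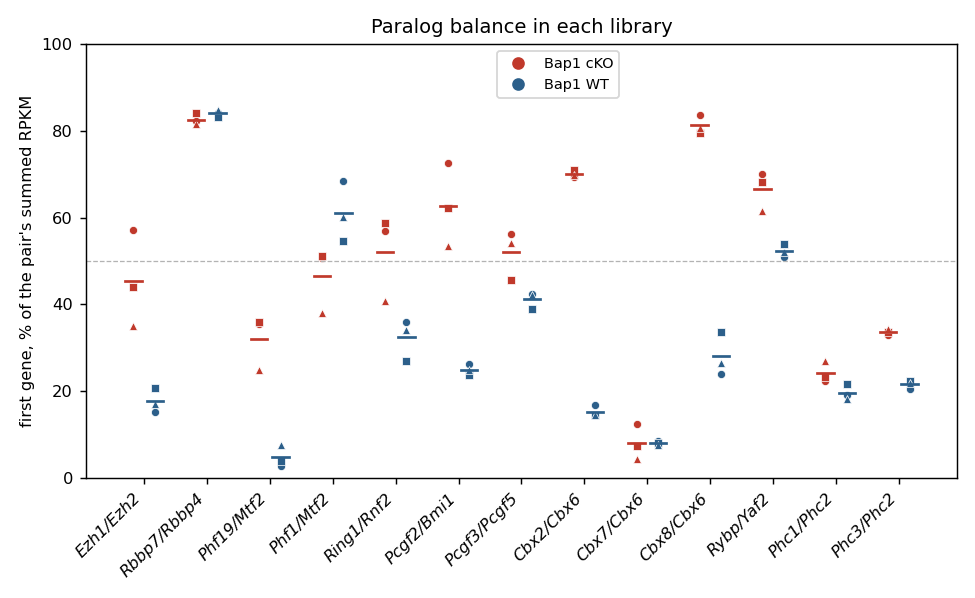
Share of the first gene in the summed RPKM of each paralog pair, in percent, for each library (points, red for cKO and blue for WT) with the mean of 3 as a bar. Pcgf2/Bmi1, Cbx2/Cbx6 and Cbx8/Cbx6 lie above 50% in every cKO library and below it in every WT library, and Rbbp7/Rbbp4 and Cbx7/Cbx6 have nearly the same mean in both groups.

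The direction of Polycomb genes was compared with that of the genes around them. All 5 Polycomb genes on chromosome 11 (Suz12, Pcgf2, Ezh1, Cbx2 and Cbx8) were called higher in cKO libraries, as were 34.7% of all genes tested. The 1005 tested genes of that chromosome had a median log2 difference of 0.42, against 0.09 over all genes. With each chromosome centred, Ezh1 (limma Benjamini-Hochberg adjusted p = 0.00278) and Pcgf2 (0.0171) still passed. Suz12 (0.685), Cbx2 (0.089) and Cbx8 (0.419) did not. Around Ezh1, the 95 tested genes within 2 Mb had a median of 1.005, and 83 of them were above 0. The median was 0.92 around Pcgf2 (71 genes) and 0.86 around Cbx2 and Cbx8 (73 genes). Around Bmi1 it was −0.89 over 8 genes, around Pcgf5 −0.75 over 21 genes and around Scmh1 0.77 over 23 genes, all 23 of them above 0. Of the 31 Polycomb genes tested, 23 (74.2%) had the sign of their neighbourhood median, as did 63.7% of all tested genes. Of the 18 that passed, 15 (83.3%) did, as did 68.7% of all genes that passed. The difference between these shares was not tested. Of the 15, 11 exceeded their neighbourhood median in size. Phf19 (neighbourhood median −0.15, 30 genes), Pcgf6 (−0.26, 40 genes) and Rybp (−0.11, 7 genes) rose where their neighbours leaned the other way, and Cbx6 (−0.14, 58 genes) fell far beyond its neighbours. Median differences of whole chromosomes ran from −0.25 on chromosome 6 to 0.64 on chromosome 7. The part of such regional shifts in the results on single genes was not tested beyond the fit with each chromosome centred, in which 5 Polycomb genes were higher and 12 lower.

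**Figure D4:**
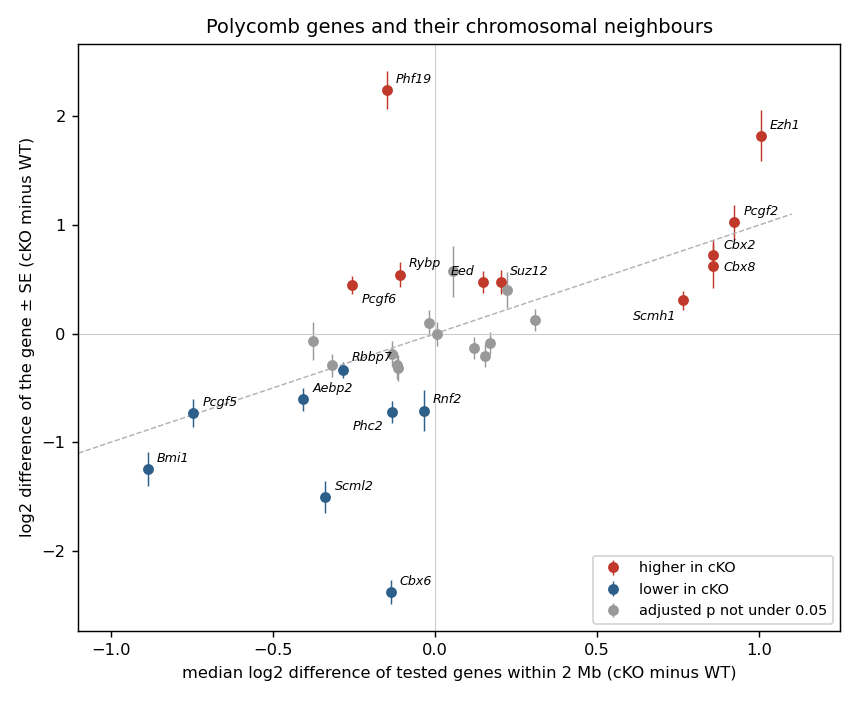
Log2 difference of each tested Polycomb gene (± SE, cKO minus WT) against the median log2 difference of the tested genes within 2 Mb, red where the gene was higher, blue where lower and grey where it did not pass. The dashed line marks equality: Pcgf2, Cbx2 and Pcgf5 lie near it, and Phf19, Cbx6 and Scml2 far from it.

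Over the Polycomb genes the 3 cKO libraries were less alike than the 3 WT libraries. On the log2 scale 24 of the 32 Polycomb genes had a larger SD in cKO libraries. The share of all genes with a larger SD in cKO libraries was not computed, so this count may not be particular to them. Of the 18 genes that passed, cKO replicate 3 was the cKO library nearest to the WT mean for 10, and replicates 1 and 2 for 4 each. Over all genes that passed these shares were 54.7% for replicate 3, 20.5% for replicate 1 and 24.8% for replicate 2. Without cKO replicate 3, 10 Polycomb genes were higher and 11 lower.

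Partners that bind these complexes were also read, from a list of 25 genes, all tested. Of these 12 were higher and 0 lower (limma; 0 also at an unadjusted p under 0.05), with a median log2 difference of 0.36, against 0.09 over all genes. The 12 make up 48.0% of the list, below the 61.2% of all genes that passed (34.7% higher and 26.5% lower). The zero became 1 without cKO replicate 2 or 3 and with each chromosome centred. Lcorl, a paralog of the PRC2 partner Lcor, rose, with 10.6, 10.5 and 10.4 RPKM in cKO libraries and 1.44, 1.99 and 1.22 in WT libraries (log2 difference 2.18 ± 0.14, limma Benjamini-Hochberg adjusted p = 4.5e-05). Lcor itself was at 4.85 ± 0.367 RPKM in cKO libraries and 5.33 ± 0.0854 in WT libraries (adjusted p = 0.364). Dcaf7, a WD40 protein found with Pcgf3 and Pcgf5 complexes, rose to 63.3 ± 8.98 RPKM, against 22.4 ± 0.661 in WT libraries (1.45 ± 0.11, adjusted p = 9.8e-05). Epop, which joins the Polycomb-like form of PRC2, was at 5.57 ± 1.68 RPKM in cKO libraries and 1.49 ± 0.0833 in WT libraries (1.37 ± 0.20, adjusted p = 0.00119).

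Max, E2f6 and Mga, partners known from the Pcgf6 complex, were grouped after their values were seen. Lcorl, Dcaf7, Max and E2f6 were the 4 partners with the smallest p. Mga, and Epop above, were outside these and were picked out after their values were seen. Max was at 77 ± 16.7 RPKM in cKO libraries and 25.9 ± 2.09 in WT libraries (log2 difference 1.52 ± 0.16, limma Benjamini-Hochberg adjusted p = 0.000278). E2f6, the repressive E2F factor, was at 32.9 ± 4.61 and 15.6 ± 0.68 RPKM in cKO and WT libraries (1.02 ± 0.11, adjusted p = 0.000385), and Mga, the scaffold that pairs with Max, at 16 ± 1.5 and 9.58 ± 0.401 RPKM (0.68 ± 0.10, adjusted p = 0.00126). Tfdp1 (adjusted p = 0.258), Cbx3 (0.307) and Wdr5 (0.506) did not pass, nor did Hdac1 (0.193) and Hdac2 (0.248) or L3mbtl2, whose values are given above. Max and E2f6 both lie on chromosome 12, whose tested genes had a median difference of 0.58.

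Erasers of the Polycomb marks and Bap1 with its partners, 13 genes, gave 7 higher and 1 lower, with a median of 0.36. These make up 61.5% of the list, near the 61.2% of all genes that passed (34.7% higher and 26.5% lower). Mysm1, an H2A deubiquitinase, rose to 11.6, 10.2 and 9.59 RPKM in cKO libraries, against 3, 4.32 and 3.04 in WT libraries (log2 difference 1.37 ± 0.15, limma Benjamini-Hochberg adjusted p = 0.000366). Usp16, another H2A deubiquitinase, fell to 17.3, 22.4 and 23.7 RPKM in cKO libraries, against 31.1, 34.3 and 40.1 in WT libraries (−0.71 ± 0.15, adjusted p = 0.00584). Asxl2, a Bap1 partner, was at 16.8 ± 1.72 RPKM in cKO libraries and 7.88 ± 0.361 in WT libraries (0.998 ± 0.10, adjusted p = 0.000312), and Foxk2, a DNA-binding partner of Bap1, at 40 ± 4.87 and 17.9 ± 1.3 RPKM (1.11 ± 0.11, adjusted p = 0.00027). The H3K27 demethylase Kdm6b rose (0.58 ± 0.13, adjusted p = 0.00806), and its relative Kdm6a did not pass (−0.17 ± 0.11, adjusted p = 0.211).

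Classical targets of Polycomb, the Hox genes and the Ink4 inhibitors, numbered 41, of which 24 were tested, 5 higher and 14 lower (79.2% called, against 61.2% of all genes). The low ones had to be high in the other group to enter the test, so the counts describe only those 24. Cdkn2a, the gene of p16 and p19Arf that Bmi1 is known to repress, was at 24.1 ± 1.11 RPKM in cKO libraries and 30.7 ± 3.74 in WT libraries (log2 difference −0.33 ± 0.10, limma Benjamini-Hochberg adjusted p = 0.0295), and Cdkn2b at 6.45 ± 1.42 and 19.3 ± 1.92 (−1.46 ± 0.15, adjusted p = 0.000322). Both were lower in the libraries in which Bmi1 was lower. A link between these genes was not tested, and a single contrast between groups cannot show one. In the Hox clusters Hoxc6 rose (1.55 ± 0.18, adjusted p = 0.000516) and Hoxc13 fell to 0.123 ± 0.15 RPKM, against 29.9 ± 1.65 in WT libraries. Hoxb2, Hoxb3, Hoxb5, Hoxb6, Hoxb7, Hoxb8 and Hoxb9, which were called lower, were listed at 0 in all 3 cKO libraries, and lie on the same chromosome as Pcgf2 and Ezh1, which were higher.

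Genes of proliferation were read beside Ezh2. Of 20 genes 3 were higher and 12 lower, with a median of −0.49, while Ezh2, as given above, did not pass. The 15 make up 75.0% of the list, against 61.2% of all genes (34.7% higher and 26.5% lower). Aurka, a mitotic kinase, stood at 15.8 ± 3.06 RPKM in cKO libraries and 42.5 ± 1.64 in WT libraries (log2 difference −1.39 ± 0.13, limma Benjamini-Hochberg adjusted p = 0.00022), Ccnb1 at 27 ± 7.47 and 55.8 ± 4.02 (−1.05 ± 0.18, adjusted p = 0.00278) and E2f1 at 13.1 ± 2.57 and 22.6 ± 0.709 (−0.76 ± 0.14, adjusted p = 0.00355). Mki67 was higher, at 37.4 ± 4.73 and 30 ± 1.14 RPKM (0.30 ± 0.10, adjusted p = 0.0413). The count of higher genes was 1 without cKO replicate 2 and without WT replicate 1, 2 or 3, and that of lower genes was 6 without WT replicate 1 or 3.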

How the data were processed

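RNA sequencing of 3 libraries labelled Bap1 cKO and 3 labelled Bap1 WT was deposited by the authors as RPKM, to 2 decimals, for 55471 Ensembl identifiers, with no library pooled. Per the submitters' processing notes the tools were cutadapt 2.8, STAR 2.7.1a and RSEM 1.3.1 with genome build GRCm38. The annotation version is not given in the sources used here. Symbols and coordinates came from GENCODE M21 (55230 identifiers matched), and promoters from RefSeq, GRCm38.p6.

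Differences were tested with limma 3.58.1 (R 4.3.3) on log2(RPKM + 1) with a variance trend, 2-sided, with genotype as the only term, for genes whose mean reached 1 RPKM. The Benjamini-Hochberg adjustment ran over all 12223 genes. Fold changes are ratios of group means of RPKM, and differences on the log2(RPKM + 1) scale understate the change of low genes. Depth came from 255 to 290 low values per library of genes with 1 transcript, of which 81.3 to 89.6% came out whole to within 0.2 fragments (40% by chance). Floors cover counting error only.

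All 32 members were named, and up to 4 genes of each other list by the smallest p where a result turned on them. Some cell type markers are not reported here. Genes named beyond that rule were chosen after their values were seen. Members, lists and alternatives were chosen with earlier results of these data known. On simulated data with 200 of 12223 genes changed, the fit found 18.2% of changes of 0.5 (log2), 75.2% of changes of 1 and 95.6% of changes of 2, with 5.58% false among the genes called. Far fewer genes changed there than the 61.2% called in the data, and the adjustment depends on that share. The simulated noise was also normal and independent between genes. These shares therefore do not measure the recovery or the false calls of the fit to the data. Other tools were matplotlib 3.10.9, pandas 2.3.3, numpy 2.4.6 and Python 3.11.15. Alternatives covered pseudocounts, the minimum level, 2 scalings, a robust variance prior, sample weights, the replicate block, chromosome centring and leaving out each library.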

Additional observations from a re-analysis of the deposited data

How the results depend on the processing

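Of the 18 Polycomb genes that passed, 12 kept their call under each of up to 16 alternatives, and 6 (Eed, Suz12, Cbx2, Cbx8, Scmh1 and Rnf2) lost it under some. Of the 13 that did not pass, 8 passed under some. With each chromosome centred, 5 Polycomb genes were higher, and Eed (−0.17), Scmh1 (−0.14), Ezh2 (0.25) and Pcgf1 (0.18) changed sign. Ezh2 also changed sign without cKO replicate 1 and without WT replicate 1 or 3 (−0.075 to 0.084 over the 6 libraries left out), Pcgf1 without WT replicate 2 (−0.257 to 0.069) and L3mbtl2 under quantile normalization (−0.0032); the cause was not tested. Under centring the partners gave 1 lower gene, the erasers 2 lower and the proliferation genes 0 higher, and the paralog shifts were 1.16 for Ezh1/Ezh2, 0.40 for Rbbp7/Rbbp4 (turned from negative), 1.75 for Pcgf2/Bmi1, 0.19 for Pcgf3/Pcgf5, 2.55 for Cbx2/Cbx6, 2.45 for Cbx8/Cbx6, 1.09 for Phc1/Phc2 and 1.20 for Phc3/Phc2. With pseudocounts of 0.1 and 0.5 Phf19/Mtf2 shifted by 2.99 and 2.18, Cbx2/Cbx6 by 3.63 and 3.37 and Cbx7/Cbx6 by 0.33 and 1.06, and Cbx8/Cbx6 shifted by 3.44 with 0.1, because low values weigh more with a smaller pseudocount. With a minimum of 5 RPKM only 10 classical targets were tested and 4 were lower.

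Leaving out each library in turn gave 8 to 10 Polycomb genes higher and 7 to 11 lower, 0 to 1 partners lower, and 1 to 3 proliferation genes higher and 6 to 14 lower. A replicate block left 9 Polycomb genes higher and 8 lower (3811 and 2938 over all genes). Of the Polycomb genes Cbx8 alone lost its call under the block (adjusted p = 0.0706). The correlation of deviations of same-numbered libraries was −0.02, 0.05 and −0.02, and that of libraries of different number ran from −0.04 to 0.05. No deviation shared by number was thus seen. Whether the numbers mark samples handled together cannot be told from these values. Values under about 0.2 RPKM are limited by depth.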
